A study of Mus musculus with 6 samples.

Results

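The insulin genes and the genes of proinsulin processing were examined in MIN6 cells after chronic epinephrine exposure. The 9 genes were listed by symbol, with earlier results of these data known and with no threshold on their values, as the 2 mouse insulin genes Ins1 and Ins2, the amylin gene Iapp, the convertases Pcsk1 and Pcsk2, their partner proteins Pcsk1n and Scg5, and the enzymes Cpe and Pam. All 9 were found among the 22298 genes listed, and all 9 were among the 12747 genes that passed the filter on low counts. RNA was sequenced from 3 control samples and 3 samples of chronic epinephrine. Both groups were the same mouse insulinoma line, MIN6, which came from a transgenic mouse whose beta cells expressed a viral T antigen from an insulin promoter. The control group received no epinephrine. In the study's scheme, the chronic epinephrine group was held in 100 nM epinephrine for 3 days, followed by withdrawal for 2 days. The methods text leaves the day of RNA collection for sequencing unnamed. The methods describe the samples of a group as independent biological replicates, and the labels do not say whether these were separate cultures, so the p-values measure the spread between these 3 samples.

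Insulin is made as proinsulin, a single chain that folds and forms its disulfide bonds in the endoplasmic reticulum and is packed into secretory granules. There the convertases encoded by Pcsk1 and Pcsk2 cut it at pairs of basic residues, and carboxypeptidase E, encoded by Cpe, trims the basic residues left at the cut ends, so that insulin and C-peptide are released together. Amylin, the peptide of Iapp, is cut by the same enzymes in the same granules and is then amidated at its C terminus by the enzyme encoded by Pam. Mice carry a pair of insulin genes, of which Ins1 arose as a retroposed copy of Ins2.

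The transcripts of the insulin genes are close in sequence, so the part of the coding sequence that tells them apart is shown here. Ins1 (ENSMUSG00000035804) lies at chr19:52264297-52265476 on the plus strand of GRCm38, and Ins2 (ENSMUSG00000000215) at chr7:142678656-142743381 on the minus strand. Over 324 aligned coding bases of the transcripts Ins1-201 and Ins2-201, 300 bases were identical (92.6%) and 24 differed, and Ins1 had a gap of 6 bases. The stretch below, which spans the bases coding for C-peptide, covers coding bases 142 to 285 of Ins1 (chr19:52264765-52264908, plus strand) and 142 to 291 of Ins2 (chr7:142678755-142679392, minus strand, with an intron between). Both are written 5′ to 3′ from GENCODE M21, and capitals mark the bases that differ or that the other gene lacks.
Ins1: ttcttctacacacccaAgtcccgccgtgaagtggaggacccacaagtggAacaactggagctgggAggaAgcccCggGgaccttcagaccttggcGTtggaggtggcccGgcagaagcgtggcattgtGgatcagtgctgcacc
Ins2: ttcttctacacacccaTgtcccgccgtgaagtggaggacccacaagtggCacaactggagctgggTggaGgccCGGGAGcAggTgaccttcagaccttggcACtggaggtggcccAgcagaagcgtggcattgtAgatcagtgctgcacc
In spite of this likeness, only 7 of the 1013 windows of 50 bases in the annotated Ins1 transcripts (0.691%) also occurred in Ins2, and no window of 100 bases did. How the counting treated reads that match both genes is not given in the sources used here, so reads falling in those 7 windows could have been split between them.

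The stretch directly before the start of transcription is shown for Ins1 and Pam, whose difference between the groups passed the test, and for Iapp. Each is the 250 bases before the start site given by RefSeq for GRCm38.p6, written 5′ to 3′ on the strand of the gene. Of the 9 genes, 7 had an entry there, and Ins2 and Cpe had none. The Ins1 stretch is chr19:52264047-52264296 (plus strand), the Iapp stretch is chr6:142298175-142298424 (plus strand), and the Pam stretch, before the first of its 2 listed start sites, is chr1:98095633-98095882 (minus strand). Capitals mark TAAT, the core that homeodomain factors such as Pdx1 recognise, and CATCTG, a core bound by factors such as Neurod1, on either strand.
Ins1: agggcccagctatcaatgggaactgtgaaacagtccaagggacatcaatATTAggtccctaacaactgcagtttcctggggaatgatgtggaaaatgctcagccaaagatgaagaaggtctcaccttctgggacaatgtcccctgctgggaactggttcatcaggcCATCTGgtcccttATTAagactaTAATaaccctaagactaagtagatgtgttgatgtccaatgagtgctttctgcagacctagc
Iapp: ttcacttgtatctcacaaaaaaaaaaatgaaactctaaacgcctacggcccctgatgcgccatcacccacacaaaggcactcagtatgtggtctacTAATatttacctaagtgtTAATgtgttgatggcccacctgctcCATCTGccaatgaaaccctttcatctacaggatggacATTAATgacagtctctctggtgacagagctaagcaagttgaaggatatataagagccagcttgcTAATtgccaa
Pam: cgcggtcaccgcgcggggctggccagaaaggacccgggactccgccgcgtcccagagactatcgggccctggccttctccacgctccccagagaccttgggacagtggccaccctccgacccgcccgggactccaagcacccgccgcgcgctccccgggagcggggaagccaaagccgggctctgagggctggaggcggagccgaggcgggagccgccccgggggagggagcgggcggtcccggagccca
TAAT occurred 3 times before Ins1 and 5 times before Iapp, counting overlapping matches, and CATCTG occurred 1 time before each. Neither was found before either start site of Pam or before Pcsk2. TAAT occurred 2 times before Pcsk1n and 1 time each before Pcsk1 and Scg5, all without CATCTG. Among 32851 mouse promoter stretches of the same length, 54.9% held TAAT, 14.4% held CATCTG, 8.91% held both and 17.3% held TAAT at least 3 times. A match is a description of the sequence only.

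The totals were 15017065 to 18127171 expected counts per library, so that 3 counts, the limit a count of 0 allows, correspond to 0.166 to 0.2 CPM, the count scaled to library size. Markers were summed in CPM on library totals, whereas the CPM of single members and listed genes also carry the TMM factors. Of 7 beta-cell markers, all were detected, with a summed level of 7228 to 7886 CPM in the control libraries and 6280 to 6375 CPM after epinephrine. The largest part was G6pc2, at 3983 to 5091 CPM in the controls and 4097 to 4196 CPM after epinephrine, so its groups overlapped. Those of Mafa overlapped too. Slc30a8, Slc2a2, Pdx1, Nkx6-1 and Ucn3 were lower in every epinephrine library than in any control. Summed alpha-cell markers, nearly all of them Gcg, were at 186 to 214.5 CPM in the controls and 379 to 411 CPM after epinephrine. Acinar markers were low, at 0.747 CPM or less in any library and 4 of the 6 at 0 throughout. Summed hepatocyte markers reached 56.2 CPM in control 2 and 138.7 CPM in control 3 and were 4.01 to 6.14 CPM in the other 4 libraries, and whether this bears on the members was not tested. Over all genes tested, edgeR's quasi-likelihood test with Benjamini-Hochberg adjustment (FDR) called 335 of 12747 genes at an FDR under 0.05, which is 2.63%, with 2.02% higher and 0.612% lower after epinephrine. At least 2-fold as well was met by 92 genes, or 0.722%.

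Control 1 stood apart from the other control libraries in a way that, over all genes tested, followed the length of the transcript. On the log2 CPM scale, genes with a length under 1000 bases, as implied by the deposited count and FPKM of each gene, differed between control 1 and the mean of controls 2 and 3 by a median of -0.541 over 814 genes. The median difference was -0.194 for 1000 to 2000 bases, 0.03 for 2000 to 4000 bases and 0.224 above 4000 bases. Among the members, Iapp (implied length 839 bases), Scg5 (1208 bases) and Ins2 (464 bases) were low in control 1, with differences of -0.764, -0.65 and -0.542. Ins1, which at 1062 bases is shorter than Scg5, differed by only -0.047. Of the longer genes, Pcsk2 (4723 bases) and Pam (3690 bases) were both at 0.248, while Pcsk1, the longest at 5035 bases, was at -0.057. Cpe (2117 bases) was at 0.018, and Pcsk1n (2193 bases) was higher in control 1 by 0.455. The members therefore followed length only in part. The part of transcript length or RNA quality in this was not tested. For the members, and for the counts of called genes in each list, values without control 1 are therefore given beside those from all 6 libraries. Without it edgeR called 2798 genes, or 21.6% of those tested. Control 1 was singled out after its values were seen. Controls 2 and 3, which remain in that fit, were the libraries with the highest hepatocyte markers, and the part of this in its calls was not tested.

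**Figure D1:**
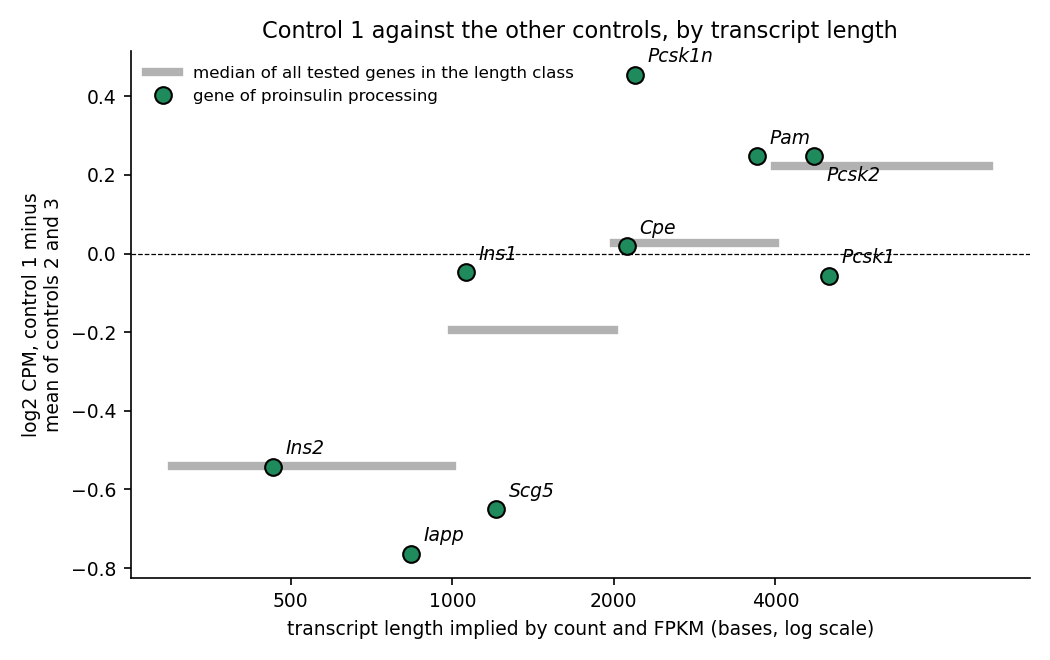
Difference of control 1 from the mean of controls 2 and 3 (log2 CPM, vertical axis) against transcript length implied by the deposited count and FPKM (bases, log axis) for the 9 genes, with steps for the median of all tested genes in 4 length classes, whose outer ends are drawn only as far as the axis. Ins2, Cpe and Pcsk2 lie near the step of their class. Ins1, Pcsk1n and Pam lie above theirs, while Iapp, Scg5 and Pcsk1 lie below theirs.

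Of the 9 genes, Ins1 was lower and Pam was higher after chronic epinephrine at an edgeR FDR under 0.05, and 7 did not pass. The count of 2 of 9 stands beside 2.63% of all genes tested. In 4 of the 9 genes (Iapp, Cpe, Scg5 and Pam) every epinephrine library was above every control library, against 14.3% of all genes tested, and in 1 (Ins1) every epinephrine library was below, against 13.0%. No member differed by 2-fold. The median log2 fold change of the 9 genes was 0.04, beside -0.0023 over all genes tested. In these bulk RNA samples, fewer cells of a kind and less RNA per cell cannot be told apart. The exact permutation test, with 3 libraries against 3, cannot give a two-sided p below 0.1.

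**Figure D2:**
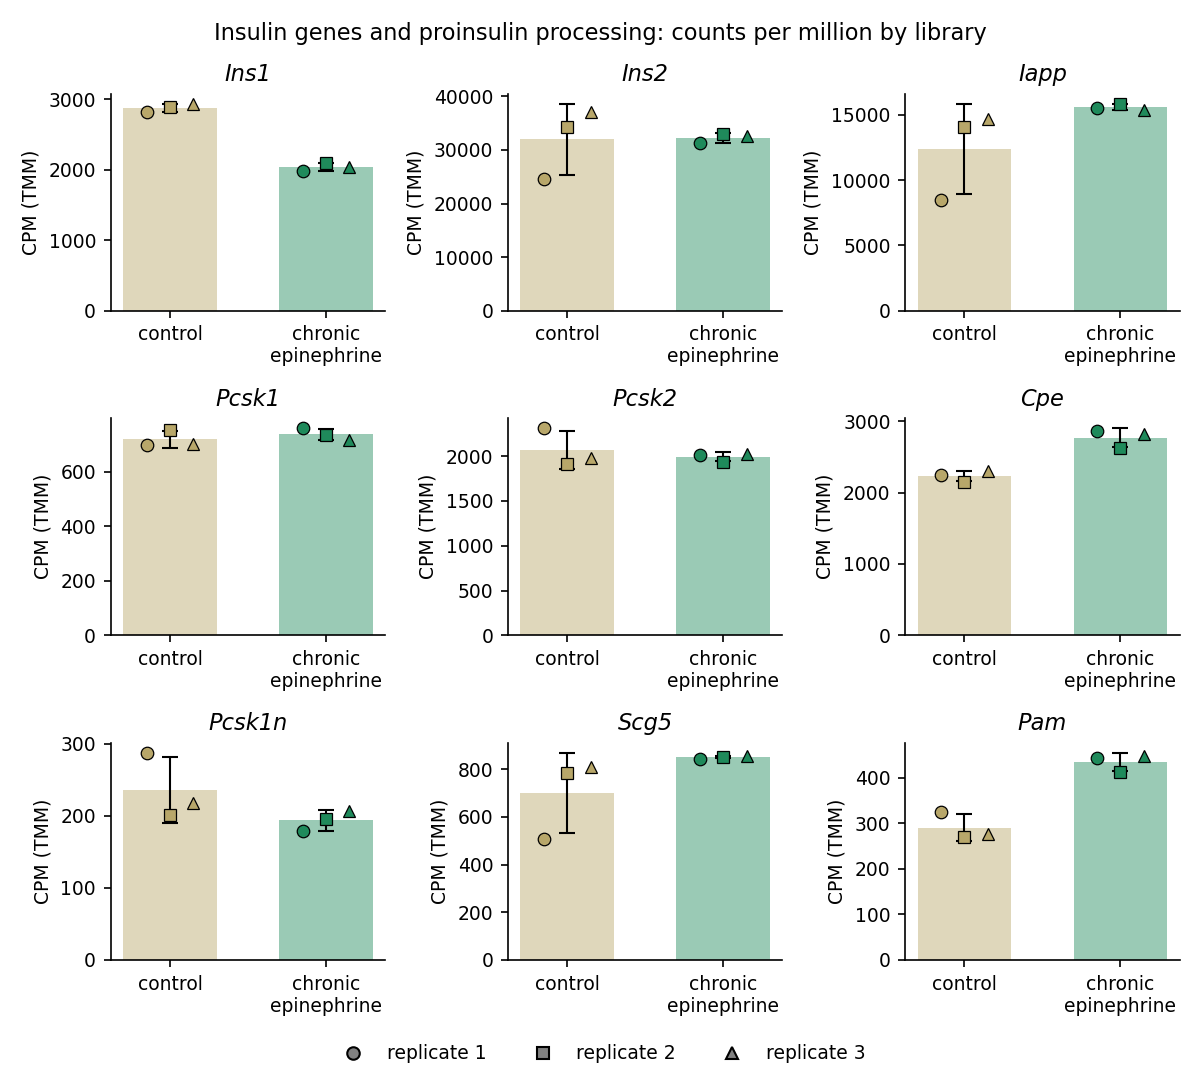
CPM (TMM-normalized, linear axes from 0) of the 9 genes in each library, with bars for the group mean, whiskers for the SD (n = 3) and a marker shape for each replicate number, which is a name and not a pair. Ins1 falls and Pam rises with no overlap of the groups, and the low control libraries of Ins2, Iapp and Scg5 are control 1.

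Ins1 encodes one of the preproinsulins. Its level was 2815, 2887 and 2932 CPM in controls 1, 2 and 3 and 1983, 2091 and 2046 CPM in epinephrine libraries 1, 2 and 3. All 3 epinephrine libraries lay below all 3 controls, and control 1 was not apart from the other controls. The mean was 2878 ± 59.0 CPM in the control group and 2039.9 ± 54.2 CPM after epinephrine (SD, n = 3). The log2 fold change of Ins1 was -0.50 (SE 0.08, 95% interval -0.68 to -0.32), a ratio of 0.709 with an interval of 0.626 to 0.803, at an edgeR FDR of 0.0152. The exact permutation p was 0.1, the smallest this design allows. The decrease of Ins1 was nearly the same in all 15 alternatives, at -0.52 to -0.48 on the log2 scale, but 7 of the 15 kept the call. Among the 8 that lost it were both fits with limma on log2 FPKM (FDR 0.0931 and 0.0865 with 1 or 0.1 added). The FDR was 2.04e-09 without control 1, and between 0.0524 and 0.154 when any of the other 5 libraries was left out.

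Ins2 encodes the other preproinsulin and was the most abundant member. Its level was 24524, 34355 and 37104 CPM in controls 1 to 3, and 31279, 33051 and 32541 CPM in epinephrine libraries 1 to 3. The epinephrine libraries lay within the range of the controls, whose spread came from the low value of control 1. The means were 31994 ± 6614 and 32290.1 ± 912 CPM (SD, n = 3), a log2 fold change for Ins2 of 0.01 (SE 0.15, 95% interval -0.33 to 0.36) at an edgeR FDR of 0.974. The interval of the ratio, 0.796 to 1.28, still allows changes of either sign. Without control 1, Ins2 was lower after epinephrine, with a log2 fold change of -0.15 at an edgeR FDR of 0.0205. With library totals as the only scaling the log2 fold change of Ins2 was -0.01 in all 6 libraries, so its sign was not fixed.

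Iapp encodes the precursor of amylin, which is stored and released with insulin. Its level was 8462, 14049.6 and 14707 CPM in the controls and 15531, 15830.4 and 15379.9 CPM after epinephrine. The epinephrine libraries were all above the controls, with control 1 far below the rest. The mean went from 12406 ± 3432 to 15580.3 ± 229 CPM (SD, n = 3), and the log2 fold change of Iapp was 0.33 (SE 0.19, 95% interval -0.10 to 0.76) at an edgeR FDR of 0.419. Without control 1 it was 0.12 at an edgeR FDR of 0.0626. Iapp therefore did not pass the test with or without that library.

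Of the enzymes that cut proinsulin, neither passed the test. Pcsk1, which encodes prohormone convertase PC1, was at 700.3, 755 and 703 CPM in the controls and 759, 736 and 717 CPM after epinephrine. The groups overlapped, with a log2 fold change of 0.04 (SE 0.08) and an interval of the ratio from 0.903 to 1.16 (edgeR FDR 0.855). Without control 1 the log2 fold change of Pcsk1 was 0.02 (edgeR FDR 0.857). Pcsk2, which encodes convertase PC2, was at 2309, 1911 and 1977 CPM in the controls and 2014, 1933 and 2026 CPM after epinephrine. These groups overlapped too, and the log2 fold change of Pcsk2 was -0.05 (SE 0.10), with an interval of the ratio from 0.827 to 1.12 (edgeR FDR 0.824). Its highest library was control 1, and without it the log2 fold change was 0.03 (edgeR FDR 0.662). Each interval leaves out a change of 1.5-fold in either direction. Part of the exons of Pcsk2 is also covered by the antisense genes Pcsk2os1 and Pcsk2os2, and whether the counting used strand is not given in the sources used here.

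Each convertase has a partner protein among the members. Pcsk1n encodes proSAAS, an inhibitor of PC1, and was at 287, 201 and 218 CPM in the controls and 179, 196 and 207 CPM after epinephrine. Its groups overlapped and its highest value was control 1. The log2 fold change of Pcsk1n was -0.28 (SE 0.14, edgeR FDR 0.345) in all libraries and -0.11 (edgeR FDR 0.172) without control 1. Exons of Pcsk1n overlap those of Eras on the opposite strand. Scg5 encodes 7B2, a chaperone that PC2 needs for its activity, and was at 508, 784 and 809.8 CPM in the controls. The epinephrine libraries of Scg5, at 845, 850.5 and 854 CPM, lay above all controls and close to each other. The log2 fold change of Scg5 was 0.28 (SE 0.16, edgeR FDR 0.429), and without control 1 it was 0.09 (edgeR FDR 0.166).

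Cpe encodes carboxypeptidase E, which acts after the convertases. Its level was 2252, 2151 and 2299 CPM in the controls and 2867, 2624 and 2821 CPM after epinephrine. All epinephrine libraries were above all controls, and control 1 was not apart. The mean went from 2234 ± 75.6 to 2770.2 ± 129 CPM (SD, n = 3), with a log2 fold change for Cpe of 0.31 (SE 0.08, 95% interval 0.12 to 0.50). The unadjusted p was 0.00531 and the edgeR FDR was 0.1, above the threshold. Of the 15 alternatives, 2 called Cpe, namely DESeq2, which called 5.23% of its genes (FDR 0.00518), and edgeR without control 1 (FDR 2.85e-05). It was not called with limma on log2 FPKM (FDR 0.27 and 0.261 with 1 or 0.1 added) or when any other library was left out (edgeR FDR 0.158 to 0.396).

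Pam encodes peptidylglycine alpha-amidating monooxygenase, which amidates amylin and other peptides but not insulin. Its level was 325, 270.0 and 277 CPM in the controls and 443, 412 and 449 CPM after epinephrine. The lowest epinephrine library was above the highest control, which was control 1. The mean went from 291 ± 29.9 to 435 ± 19.6 CPM (SD, n = 3), and the log2 fold change of Pam was 0.58 (SE 0.10, 95% interval 0.36 to 0.80), a ratio of 1.5 with an interval of 1.28 to 1.75. The edgeR FDR was 0.0198 and the exact permutation p was 0.1, the smallest this design allows. Of the 15 alternatives, 10 kept the call. Without control 1 the log2 fold change of Pam was 0.67 at an edgeR FDR of 1.32e-10, and when any of the other 5 libraries was left out the FDR was 0.0761 to 0.162. An annotated gene on the same strand, B230216N24Rik, shares exon sequence with Pam, and 1.07% of the windows of 50 bases in its transcripts occur in other genes.

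**Figure D3:**
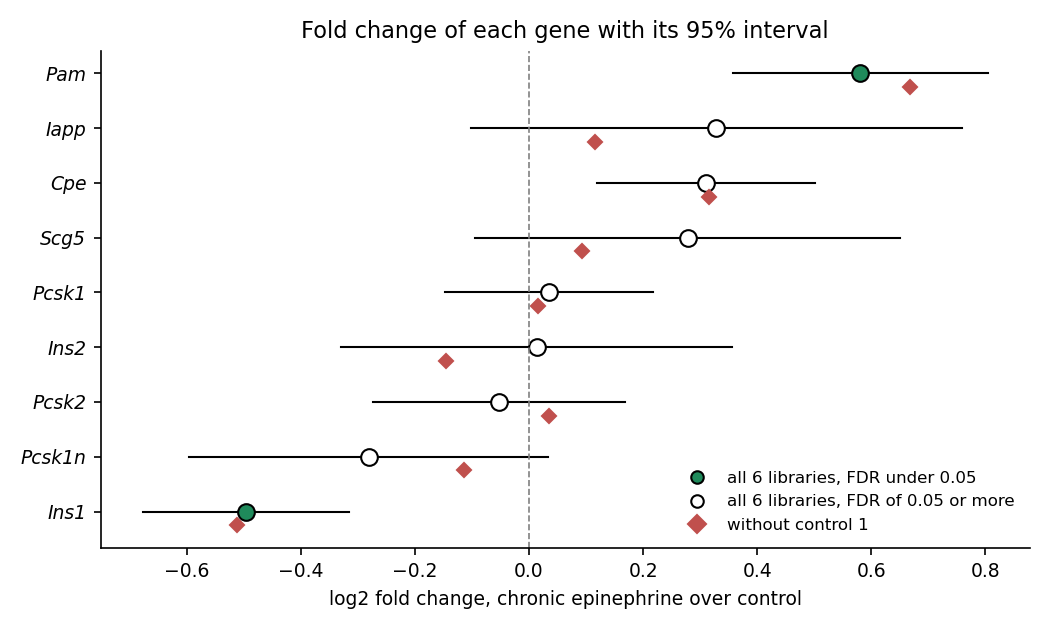
Log2 fold change of the 9 genes, chronic epinephrine over control, from edgeR on all 6 libraries (circles, with 95% intervals, filled where the FDR was under 0.05) and without control 1 (diamonds). The diamonds of Ins1, Cpe and Pcsk1 lie close to their circles, while those of Ins2 and Pcsk2 lie on the other side of zero.

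Leaving out control 1 thus gave 4 called members, namely Ins1 and Ins2 lower and Cpe and Pam higher, when 21.6% of all genes tested were called. Leaving out any other library gave 0 called members, in fits that called only 47 to 192 genes in all. The members made up 4.34% of the counts in control 1, 5.75% and 6.07% in controls 2 and 3, and 5.56% to 5.68% after epinephrine.

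Levels were compared between genes on the FPKM scale, which divides by transcript length. Ins2 had the highest FPKM of all genes in all 6 libraries, at 54439 in control 1, 74297 and 79687 in controls 2 and 3 and 67065 to 70170.1 after epinephrine. Iapp was at 10375 to 17444 FPKM in the controls and 18173 to 18576 FPKM after epinephrine, at rank 2 or 3 in every library. Ins1 was at 2724 to 2747 FPKM in the controls and 1857 to 1938 FPKM after epinephrine, and ranked 13, 18 and 18 in controls 1 to 3 and 23 in each epinephrine library. Below these came Cpe at 1019 to 1347 FPKM, followed by Scg5 (433 to 701 FPKM) and Pcsk2 (403 to 503 FPKM), which overlapped in the level of control 1. Pcsk1 was at 139 to 150.4 FPKM, Pcsk1n at 81.0 to 135 FPKM and Pam at 73.8 to 120.0 FPKM, of which the last 2 overlapped. The length implied for Ins1 was 1062 bases, as in its annotated transcript, and that for Ins2 was 464 bases, so the FPKM of Ins1 relative to Ins2 depends on the annotated length.

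A ratio of members within a library does not depend on the scaling between libraries. The Ins1 to Ins2 ratio of FPKM was 0.0501, 0.0367 and 0.0345 in controls 1 to 3 and 0.0277, 0.0276 and 0.0275 in epinephrine libraries 1 to 3. All 3 epinephrine values were below all 3 controls and lay within a narrow range, while control 1 was the highest. The mean ratio was 0.0404 ± 0.00845 in the control group and 0.0276 ± 0.000123 after epinephrine (SD, n = 3), a log2 difference of -0.53. The exact two-sided permutation p was 0.1, the smallest possible, and 0.267 after Benjamini-Hochberg adjustment over the 8 ratios compared. Without control 1 the log2 difference was -0.37, and over the 6 settings that left out a library it was -0.64 to -0.37. On counts, without division by length, the same ratio was 0.115, 0.0840 and 0.0790 in the controls and 0.0634, 0.0633 and 0.0629 after epinephrine.

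The ratio of Iapp to summed insulin was 0.182, 0.218 and 0.212 in the controls and 0.267, 0.258 and 0.254 after epinephrine, without overlap. Its log2 difference was 0.35 (exact permutation p = 0.1, adjusted p = 0.267) and 0.27 without control 1. The ratio of Scg5 to Pcsk2, the chaperone to its convertase, was 0.860, 1.6 and 1.6 in the controls and 1.64, 1.72 and 1.65 after epinephrine. Here the log2 difference of 0.36 (exact permutation p = 0.1, adjusted p = 0.267) became 0.06 without control 1. The ratio of Cpe to insulin was 0.0191, 0.0132 and 0.0131 in the controls and 0.0195, 0.0169 and 0.0185 after epinephrine, and overlapped only through control 1. Its log2 difference was 0.29 (exact permutation p = 0.3) and 0.47 without control 1. The ratios of Pcsk2 and of Pcsk1 to insulin also overlapped only through control 1, which was the highest library of both. The ratio of Pcsk2 to insulin was 0.0088, 0.00527 and 0.00505 in the controls and 0.00559 to 0.00615 after epinephrine, with a log2 difference of -0.06 (exact permutation p = 1.0) that turned to 0.19 without control 1. The ratio of Pcsk1 to insulin was 0.0025, 0.00195 and 0.00169 in the controls and 0.00197 to 0.00218 after epinephrine, with a log2 difference of 0.02 (exact permutation p = 0.8) and of 0.17 without control 1. For these and for Cpe to insulin the exact permutation p without control 1 was 0.1, the smallest that 2 libraries against 3 allow. The ratios of Pcsk1 to Pcsk2 and of Pcsk1n to Pcsk1 overlapped with and without control 1. Their log2 differences were 0.08 and -0.30 (exact permutation p = 0.7 and 0.2), and -0.02 and -0.13 without control 1. With 3 libraries against 3, no ratio could pass a threshold of 0.05.

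**Figure D4:**
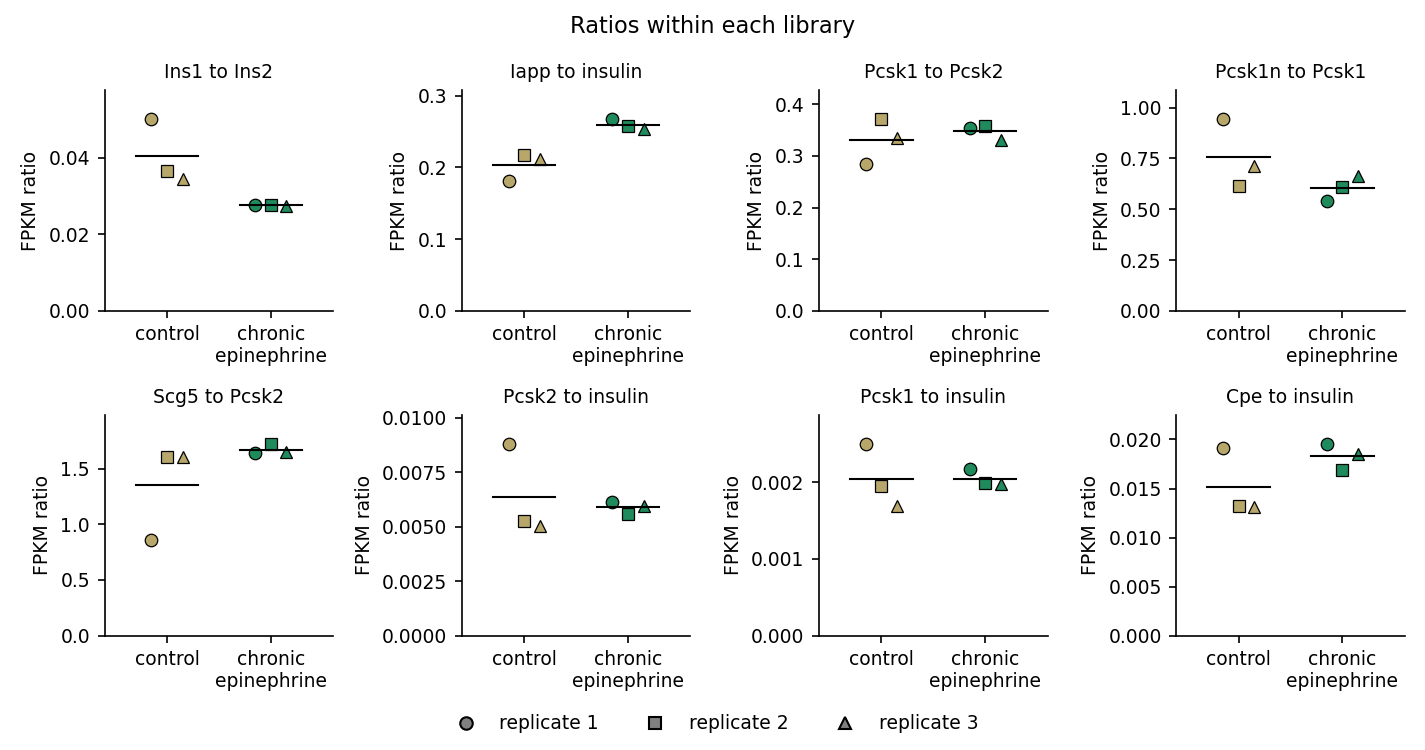
The 8 within-library ratios of FPKM among the members, where insulin is Ins1 plus Ins2. A point is drawn for each library, shaped by replicate number, and a horizontal line at the group mean (n = 3, linear axes from 0). The Ins1 to Ins2 ratio lies lower and the Iapp to insulin and Scg5 to Pcsk2 ratios lie higher after epinephrine without overlap.

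The rest of the pathway was described with 5 lists of genes, which like the members were written with earlier results of these data known, so their counts are descriptions. Counts of list genes without control 1 stand beside 21.6% of all genes called in that fit, and those from all 6 libraries beside 2.63%. The fits that left out any other library called 47 to 192 genes in all, and DESeq2 called 5.23% of its genes. The insulin gene transcription factors had 10 of 10 genes tested, of which 1 was called, lower. Over all 6 libraries, all 10 had a log2 fold change below zero, with a median of -0.24. In the whole table, 6311 of 12747 genes were above zero. Mafa was at 909, 661 and 700 CPM in controls 1 to 3, on library totals. Its epinephrine libraries, at 685 to 690 CPM, lay between controls 2 and 3, so its place below zero rested on control 1. Pax6, which binds the insulin and glucagon gene promoters, fell from 1143 ± 56.7 to 792 ± 23.6 CPM (SD, n = 3). Its log2 fold change was -0.53 (SE 0.08) at an edgeR FDR of 0.0136. Pdx1, an activator of insulin transcription, had a log2 fold change of -0.37 (SE 0.10, edgeR FDR 0.104), and Nkx6-1, a factor of beta-cell identity, one of -0.53 (SE 0.19, edgeR FDR 0.197). Control 1 was the highest library of both, at 696 and 411 CPM. Controls 2 and 3 were at 556 and 584 CPM for Pdx1 and at 253 and 243 CPM for Nkx6-1. After epinephrine Pdx1 was at 455 to 484 CPM and Nkx6-1 at 198 to 216 CPM. The count called was 2 with DESeq2 and 5 without control 1, and 0 without control 2 or without any single epinephrine library.

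Of the genes of proinsulin folding in the endoplasmic reticulum, 11 of 14 were called higher and none lower, with a median log2 fold change of 0.59. Those called were Hsp90b1, Pdia6, Ero1l, Dnajc3, Sdf2l1, Creld2, P4hb, Pdia4, Hspa5, Pdia3 and Manf. Sdf2l1, a component of a chaperone complex, was at 39.8 to 44.7 CPM in the controls and rose to 102.6 ± 0.902 CPM (SD, n = 3). Its log2 fold change was 1.30 (SE 0.08, edgeR FDR 0.0004). Ero1l, the oxidase that recharges protein disulfide isomerase, rose with a log2 fold change of 0.74 (SE 0.08, edgeR FDR 0.00289), and Creld2, a stress-induced protein of the same compartment, with one of 0.87 (SE 0.10, edgeR FDR 0.00434). Ero1lb, a pancreas-enriched oxidase of the same family, was at -0.02 (SE 0.08, edgeR FDR 0.913). The count was 12 without control 1, and 2 to 6 when any other library was left out.

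Of 10 genes of granule cargo and maturation, 2 were called higher and none lower, with a median log2 fold change of 0.14. Chgb, which encodes chromogranin B, rose with a log2 fold change of 0.47 (SE 0.09, edgeR FDR 0.0319), from 3022 ± 222 to 4192 ± 93.4 CPM. Vgf, which encodes a granule protein that is itself cut to peptides, rose with a log2 fold change of 1.27 (SE 0.24, edgeR FDR 0.034), and Ptprn, a granule membrane protein, had a value of 0.65 (SE 0.17, edgeR FDR 0.1). The count was 7 of 10 without control 1 (21.6% over all genes), 1 with limma on log2 FPKM and 0 when any other library was left out. Among 14 tested of 19 other convertases and peptidases of prohormone processing, edgeR called 0, with 3 of 14 at an unadjusted p under 0.05 beside 2179 of 12747 over all genes, 1 called by DESeq2 and 5 called without control 1 (21.6% over all genes). Their median was -0.13. The smallest p belonged to Cpm, a membrane carboxypeptidase (log2 fold change -0.53, SE 0.12, edgeR FDR 0.0659), Qpctl, a glutaminyl cyclase (0.27, SE 0.09, edgeR FDR 0.172), and Furin, the convertase of the Golgi (-0.46, SE 0.18, edgeR FDR 0.248). Furin was at 141 CPM in control 1, far above controls 2 and 3 at 82.9 and 92.7 CPM. After epinephrine Furin was at 73.8 to 80.9 CPM.

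Of 22 other peptide prohormones, 11 passed the filter on low counts, and of these 6 were called higher (Gcg, Cartpt, Pdyn, Nucb2, Adm and Cck) and 2 lower (Npy and Ucn3). Adm, which encodes adrenomedullin, a peptide amidated by the product of Pam, was at 7.63 to 8.42 CPM in the controls and rose to 19.6 ± 0.443 CPM (SD, n = 3). Its log2 fold change was 1.27 (SE 0.10, edgeR FDR 0.00123). Gcg, the glucagon precursor, rose with a log2 fold change of 1.02 (SE 0.10, edgeR FDR 0.00199), from 194 ± 18.2 to 394 ± 16.4 CPM. Nucb2, the precursor of nesfatin, rose with a log2 fold change of 1.14 (SE 0.12, edgeR FDR 0.0033). The count was 9 without control 1 and 4 without any single epinephrine library.

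**Figure D5:**
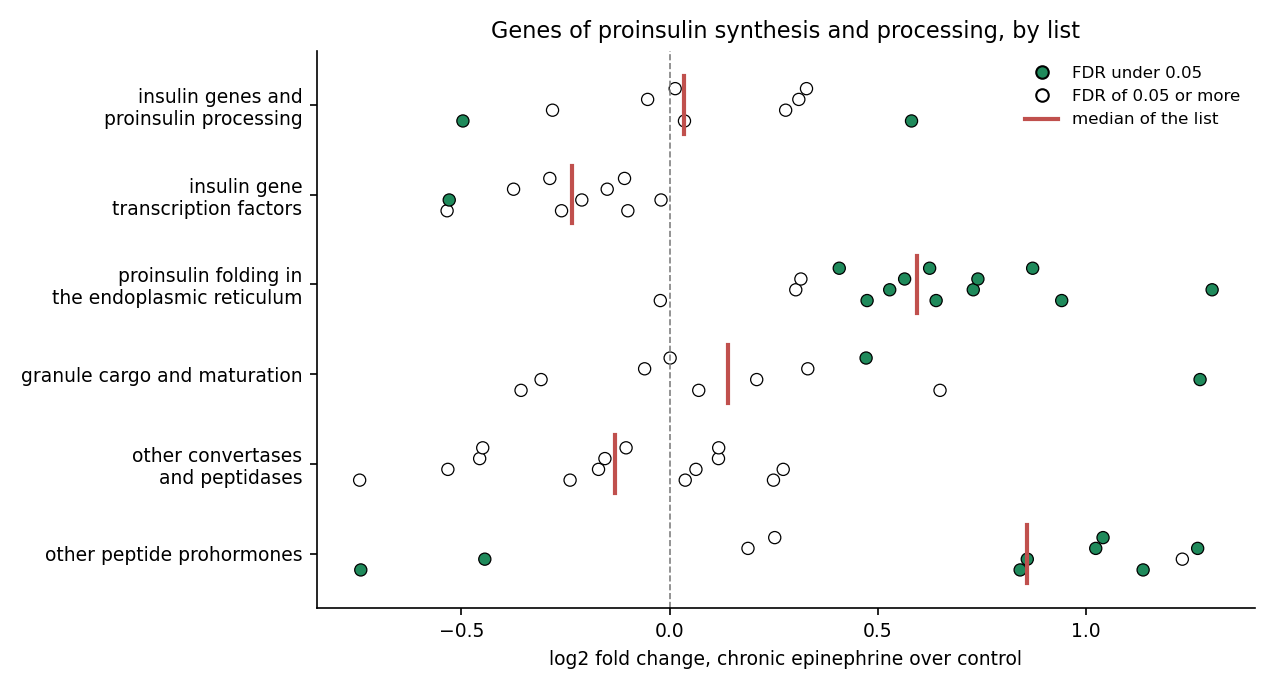
Log2 fold change, chronic epinephrine over control, of every tested gene in the 5 lists and of the 9 members, with filled points where the edgeR FDR was under 0.05 and a vertical bar at the median of each list. The folding genes lie above zero apart from Ero1lb, and the 10 insulin gene transcription factors lie below it. The place of Mafa below zero rested on its highest control library, and its epinephrine libraries lay between the other controls.

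Marker levels moved with the groups for some cell types. Counts of called markers stand beside 2.63% of all genes tested, with 2.02% higher and 0.612% lower. Of 7 beta-cell markers, 2 were called, both lower: Slc2a2, the glucose transporter of beta cells, at 545 to 641 CPM in the controls and 336 to 355 CPM after epinephrine, and Ucn3, a marker of mature beta cells, at 48.7 to 60.7 and 29.7 to 32.2 CPM. The rise of the alpha-cell sum was that of Gcg. Several markers are also genes of the lists, so they are not separate observations. Pdx1, Mafa and Nkx6-1 are transcription factors there, Slc30a8 is a granule gene, and Gcg, Ucn3, Sst, Ppy and Pyy are prohormones. Summed fibroblast markers were 22.5, 1.43 and 7.85 CPM in controls 1 to 3 and 18.4, 11.8 and 0.787 CPM in epinephrine libraries 1 to 3, highest in control 1 and with the groups overlapping. Markers of PP cells were at 0.229 CPM or less in every library. Summed delta-cell markers were 2.74 to 3.2 and 2.81 to 4.13 CPM. Of 4 leukocyte markers, only Cd68 passed the filter on low counts, and it was called. Its level was 0.344 to 0.733 CPM in the controls and 2.1 to 3.36 CPM after epinephrine. Lyz2 was at 0 to 0.56 CPM in the controls and 0 to 0.177 CPM after epinephrine, and Ptprc and Cd3e were under the limit of 3 counts in all 6 libraries. The part of these in the member results was not tested.

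The genes whose pattern was most like that of a member were taken as those with the smallest root mean square difference of centred log2 CPM over the 6 libraries. For Ins1 these were Cnn3 (0.0427), Slc40a1 (0.0433) and Pax6 (0.0459). Cnn3, which encodes an actin-binding protein, was at 136 to 141 CPM in the controls and 93.1 to 97.6 CPM after epinephrine, and Slc40a1, the iron exporter, at 119.6 to 125 and 82.5 to 84.6 CPM. For Ins2 they were Dpy30 (0.0128), Gtf2a2 (0.0206) and Ramac (0.0255), all of which were lowest in control 1, at 35.9, 49.5 and 48.3 CPM. These are descriptions over the same 6 libraries, which share the spread of control 1.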

How the data were processed

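The authors deposited for each gene and library an expected count, not normalized between libraries, and an FPKM value, scaled to transcript length and library total. The submitters' processing notes name GRCm38, and the aligner, counting tool and annotation are not given in the sources used here. Of the deposited expected counts of all genes and libraries, zeros included, 8.34% were not exactly whole numbers as written (no tolerance), and all were rounded. Genes were filtered with filterByExpr and scaled with TMM factors, and the quasi-likelihood F test of edgeR 4.0.16 (R 4.3.3) was fitted without covariates. Its p-values were adjusted by Benjamini-Hochberg over the 12747 genes that passed the filter. The threshold was an FDR under 0.05, with at least 2-fold given beside it. The standard error was the log2 fold change divided by the square root of F. FPKM ratios were tested by exact two-sided permutation. Intervals on counts cover counting error and the spread between libraries only. The fit was tested on simulated data. Positions and transcripts are from GENCODE M21.

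Alternatives were DESeq2 1.42.0 (its test, and its size factors in edgeR), library totals with and without the members, limma 3.58.1 on log2 FPKM (pseudocount 1 or 0.1), an unfiltered table, at least 10 counts in every library, replicate number as a block, and each library left out. The genes named are the 9 members, the 3 of smallest p in each list and the 3 of most similar pattern to Ins1 and to Ins2. Ero1lb, Mafa, G6pc2, the genes called in a list and the markers that differed were named after their values were seen. The members and lists were chosen with earlier results of these data known. Of the authors' annotation columns, only the gene identifier and the symbol were used.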

Additional observations from a re-analysis of the deposited data

How the results depend on the processing

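The log2 fold changes of the members kept their sign in all 15 alternatives except for Ins2 and Pcsk2. Ins2 was at -0.0104 with library totals as the only scaling, at -0.146 without control 1 and at -0.0032 without epinephrine library 2, with a range of -0.146 to 0.133 over the fits that left out a library, and Pcsk2 was at 0.0346 without control 1 (range -0.114 to 0.0346). Ins1 was past the threshold in 7 alternatives and Pam in 10. The replicate numbers are shared by the groups, but deviations of same-numbered libraries from their group means correlated at 0.0502, 0.0677 and -0.0488, so they were not treated as pairs. With the replicate block the log2 fold change of Ins1 was -0.497 (edgeR FDR 0.0686) and that of Pam 0.585 (0.0478), 1 member was called, 178 genes in all, 0 transcription factors and 1 granule gene. For the 8 ratios, the exact sign-flip test over 3 replicate pairs allows no p below 0.25. With limma on log2 FPKM, Ins1 was at -0.523 with 1 or 0.1 added (FDR 0.0931 and 0.0865), 1 member and 1 granule gene were called, and 43 genes passed both thresholds with 1 added. DESeq2 called 734 genes, 2 transcription factors, 1 other convertase or peptidase, and Cpe at 0.303 (FDR 0.00518). Leaving out each library in turn gave 47 to 2798 called genes, 33 to 211 at least 2-fold, 0 to 4 members, 0 to 5 transcription factors, 2 to 12 folding genes, 0 to 7 granule genes, 0 to 5 other convertases and peptidases and 4 to 9 prohormones. In these fits Ins1 was at -0.514 to -0.476, Cpe at 0.276 to 0.349 and Pam at 0.523 to 0.668. The ratio differences that turned sign were Pcsk1 to Pcsk2 (range -0.0196 to 0.172), Pcsk2 to insulin (-0.208 to 0.192) and Pcsk1 to insulin (-0.111 to 0.172, with -0.00574 and -0.0268 between), and the cause of these changes was not tested. The median log2 fold change of all genes stayed between -0.029 and 0.005 in every alternative. With 3 libraries a group, and with 1 control library that differs from the others, the change seen for Cpe fell on either side of the threshold depending on the setting, and a p that misses it does not show that the groups are alike.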
